A study of Rattus norvegicus with 21 samples.

Results

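Inorganic arsenic (iAs) and manganese (Mn) were compared with each other for their microRNAs in INS-1 832/13 cells, a clone of a rat insulinoma line that secretes insulin and is used as a model of the pancreatic beta cell. Cells were plated 24 h before exposure and then kept for 24 h with 1 µM iAs or 25 µM Mn. The untreated libraries stay out of the difference itself and are given beside it, as are those exposed to 5 µM cadmium (Cd). Each metal was given at 1 dose, and the doses differ, so the values compare 1 µM of one metal with 25 µM of the other. The comparison holds 6 libraries, 3 per metal, of 12 small RNA libraries and 21 libraries in the series. Its members are the table rows whose mean over the 12 libraries reached 10 RPMMM, which are 523 of 1186. RPMMM is the authors' unit, in which the reads mapped to microRNAs are scaled to one common total per library. The other 663 rows were not tested. The row nearest above this limit, a form of miR-30a-5p, had a mean of 10.1 RPMMM, and the nearest below it, a form of miR-20b-5p, had 9.99. Of the 523 rows, 279 are canonical microRNAs and 244 are forms with a shifted start, named here by the offset in bases that the row name carries.

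A microRNA is cut from a hairpin whose 5p and 3p arms can each give a mature strand. The strand loaded into an Argonaute protein finds target mRNAs mainly through its seed, bases 2 to 8, so microRNAs with 1 seed share many targets. In beta cells miR-375 and miR-7 are among the most abundant microRNAs, miR-29 and miR-204 are known regulators of insulin secretion and insulin gene expression, and miR-146a is induced through NF-kB, the transcription factor of inflammation.

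The mature sequences on which the results turn come from RefSeq (GRCr8), which named 259 of the 279 canonical rows. Each is written 5′ to 3′ with the seed in capitals. The first set shows microRNAs higher with iAs, in which members of 1 seed stand together, and with them miR-29c-3p, which was not called.
miR-146a-5p: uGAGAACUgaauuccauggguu
miR-146b-5p: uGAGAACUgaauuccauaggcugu
miR-29a-3p: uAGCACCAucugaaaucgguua
miR-29b-3p: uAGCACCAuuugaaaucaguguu
miR-29c-3p: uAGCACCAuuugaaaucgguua
miR-132-3p: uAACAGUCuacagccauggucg
miR-212-3p: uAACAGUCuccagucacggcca
miR-22-3p: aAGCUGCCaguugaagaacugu
miR-148a-5p: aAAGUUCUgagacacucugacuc

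The second set shows microRNAs lower with iAs, 4 of them beside a microRNA of the same seed. Those pairs are miR-410-3p with miR-344b-3p, miR-708-5p with miR-28-5p, miR-7b with miR-7a-5p, and miR-25-3p with miR-92b-3p. Of the partners, miR-28-5p and miR-7a-5p were not called and are printed for their seed alone.
miR-410-3p: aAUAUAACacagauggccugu
miR-344b-3p: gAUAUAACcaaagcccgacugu
miR-708-5p: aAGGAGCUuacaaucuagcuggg
miR-28-5p: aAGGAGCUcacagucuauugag
miR-7b: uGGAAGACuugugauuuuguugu
miR-7a-5p: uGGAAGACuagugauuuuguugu
miR-25-3p: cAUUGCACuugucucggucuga
miR-92b-3p: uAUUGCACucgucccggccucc
miR-382-5p: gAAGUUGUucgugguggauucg
miR-541-5p: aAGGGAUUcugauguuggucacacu
miR-369-3p: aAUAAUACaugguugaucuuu
miR-346: uGUCUGCCugagugccugccucu
miR-421-3p: aUCAACAGacauuaauuggg
miR-27b-5p: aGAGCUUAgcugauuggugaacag
miR-27b-3p: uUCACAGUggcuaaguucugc

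The iAs and Mn libraries were worth between 5903188 and 7907639 microRNA reads, as judged from the spacing of their low values, and the shallowest of each metal was replicate 1. The labels do not say whether replicate libraries are separate cultures; p-values therefore reflect only how far these libraries spread, which may be technical. The tissue label reads liver, but the liver microRNA miR-122-5p had 4.90 to 12.6 RPMMM over the 12 libraries while the islet microRNA miR-375-3p had 54065 to 67581. MicroRNA markers of blood cells summed to at most 2.86 RPMMM in the iAs and Mn libraries, and no row matched miR-223, miR-451, miR-144, miR-150 or miR-486. Of the neuronal markers, whose rows of miR-9a and miR-128 are abundant in this line, 1 of 9 tested rows was higher and 5 were lower with iAs. Over all rows tested, 7.27% were higher and 9.75% lower. The neuronal marker sum was 3631 to 3668 RPMMM with iAs and 4015 to 4258 with Mn, and its part in other results was not tested. The 5 lower neuronal rows were 3 of miR-9a-5p and 2 of miR-128-3p, and the rows of each share 1 mature strand. These 5 became 2 without untreated replicate 2, iAs replicate 1, any Cd replicate or Mn replicate 3. They became 1 without iAs replicate 3 or Mn replicate 2, and 0 without iAs replicate 2 or Mn replicate 1. The endothelial marker miR-126 was higher with iAs in 2 of 3 tested rows, against 7.27% of all rows. The endothelial marker sums were 226 to 232 RPMMM with iAs against 183.9 to 196.4 with Mn, whose part was not tested either. Of those 2 calls 1 was left without iAs replicate 1, any Cd replicate, or Mn replicates 1 or 2, and 0 without iAs replicates 2 or 3 or Mn replicate 3. Fibroblast and smooth muscle markers summed to 10.4 to 12.6 RPMMM with iAs and 6.77 to 12.0 with Mn, and acinar markers to 11.1 to 12.8 and 11.7 to 13.2. Muscle markers, nearly all of them miR-499, summed to 70.5 to 78.0 and 70.6 to 85.4 RPMMM. In iAs replicate 2 the deviations of all rows from the group mean ran with those of untreated replicate 1 (r = 0.54, across rows) and Cd replicate 2 (r = 0.46). iAs replicate 1 ran likewise with untreated replicate 3 (r = 0.53) and Cd replicate 1 (r = 0.37).

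Between iAs and Mn, 38 rows were higher with iAs and 51 lower (limma, adjusted p under 0.05), together 17% of the rows tested. Rows called higher were 7.27% and rows called lower 9.75% of those tested. In each of these 89 rows the 3 iAs libraries lay apart from the 3 Mn libraries, which was also so for 35% of all rows. Most differences were small: 8 of the higher and 19 of the lower rows passed 1.5-fold, and 4 rows passed 2-fold on the log2(RPMMM + 1) scale used for all log2 differences here. The median over all rows was -0.00. Against untreated cells the same fit called 44 rows with iAs (8.41%) and 39 with Mn (7.46%), and these comparisons share the untreated libraries. The count of 89 became 54 without Mn replicate 1 and 55 without Mn replicate 3. Higher rows numbered 25 without iAs replicate 2, 23 without Mn replicate 1 and 21 without Mn replicate 3, and lower rows 33 without iAs replicate 3 and 31 without Mn replicate 1. Without iAs replicate 2 and both libraries that ran with it, 40 rows were higher and 72 lower, and without iAs replicate 1 and both that ran with it, 35 and 38.

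**Figure D1:**
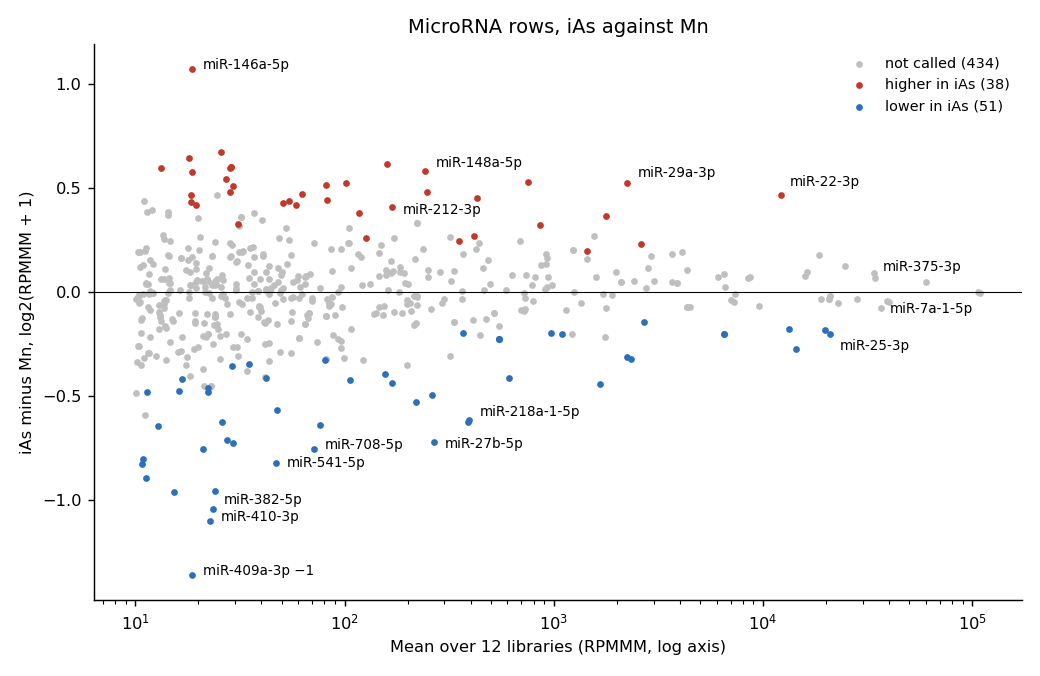
Each point is 1 of 523 rows, with its mean over 12 libraries (RPMMM, log axis) on the x axis and its iAs minus Mn difference in log2(RPMMM + 1) on the y axis. Red points are the 38 rows called higher and blue points the 51 called lower with iAs; the farthest are miR-146a-5p at 1.07 and the miR-409a-3p form at -1.36, while miR-7a and miR-375, at the far right, lie near 0.

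The most abundant microRNAs differed little. The 20 most abundant rows with distinct values held 71.2% of the mean total, and their differences ran from -0.20 to 0.18. Of these 20, miR-25-3p and miR-27b-3p were called, both lower with iAs. miR-7a-5p had 105057, 116314 and 105054 RPMMM with iAs and 110028, 105153 and 111831 with Mn (row miR-7a-1-5p). Those ranges overlap, and the difference was -0.00 with a 95% interval of -0.13 to 0.12 (limma adjusted p = 0.98). miR-375-3p differed by 0.05, with an interval of -0.09 to 0.19 (adjusted p = 0.70). The called rows together held 12.3% of the mean total. In RPMMM the largest gain with iAs over Mn among called rows was in miR-22-3p, by 3829, followed by miR-29a-3p, by 815. The largest deficits were in miR-25-3p (-2851), miR-93-5p (-2587) and miR-27b-3p (-2416). miR-22-3p, miR-25-3p, miR-93-5p and the other rows named below for their level, seed, arm or hairpin were chosen after their values were seen.

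miR-146a-5p, which dampens NF-kB signalling by repressing Traf6 and Irak1, had the largest positive difference. It had 29.27, 29.98 and 27.52 RPMMM in the iAs libraries and 12.4, 12.7 and 14.8 in the Mn libraries. The untreated libraries, at 16.8, 13.34 and 15.01, overlapped those with Mn and lay below every iAs library. The mean with iAs was 28.9 ± 1.27 RPMMM (SD, n = 3) against 13.3 ± 1.33 with Mn (SD, n = 3), 2.18-fold higher, and differed by 1.07 in log2 (limma SE 0.12, adjusted p = 7.7e-05). Against untreated cells miR-146a-5p differed by 0.90 with iAs and by -0.17 with Mn (adjusted p = 0.38). miR-146b-5p, of the same seed and from another hairpin, was more abundant and differed less: 2828, 2836 and 2878 RPMMM with iAs against 2359, 2427 and 2486 with Mn (0.23, SE 0.05, adjusted p = 0.0058). Of 18 rows of microRNAs induced through NF-kB, 5 were higher and 4 lower (median 0.14 against -0.00 over all rows). Over all rows 7.27% were higher and 9.75% lower. The 5 higher ones are miR-146a-5p, miR-146b-5p and rows of miR-132, which count again below with miR-212. The 4 lower ones are miR-125b-1-3p and 3 rows of miR-9a-5p that hold nearly the same values, and they became 1 without untreated replicate 2, without any 1 iAs or Cd replicate, or without Mn replicates 1 or 2, and 0 without Mn replicate 3. The lead row of this list was miR-146a-5p itself.

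The miR-29 family, which represses extracellular matrix genes and, in beta cells, the exocytosis protein syntaxin 1a, was higher with iAs in 9 of 16 rows and lower in 0 (median 0.53). The shares over all rows were 7.27% higher and 9.75% lower. Leaving out 1 library gave 7 to 12 higher rows in the family. The 9 rows include shifted forms and rows that share 1 mature strand, which are not separate microRNAs. miR-29a-3p had 2380, 2966 and 2649 RPMMM with iAs and 1787, 2070 and 1695 with Mn, ranges that do not overlap (0.53, SE 0.10, adjusted p = 0.0030). Untreated cells, at 2452, 1976 and 2069, lay between the group means, and neither metal was called against them (0.30, adjusted p = 0.068 for iAs; -0.23, adjusted p = 0.16 for Mn). miR-29b-3p was scarcer, at 33.5, 38.3 and 34.7 RPMMM with iAs and 22.58, 27.04 and 19.98 with Mn (0.60, SE 0.13, adjusted p = 0.0058). That value is from the rows of miR-29b-2 and miR-29b-3, which are identical, and the miR-29b-1 row gave 0.60 as well, since the 3 hairpins share the mature strand. miR-29c-3p had 205, 304 and 241 RPMMM with iAs and 200, 210 and 178 with Mn. These overlap, and the difference of 0.33 missed the threshold (adjusted p = 0.11), which it passed once iAs replicate 1 was left out (adjusted p = 0.0296). The passenger strand miR-29a-5p differed by 0.67 (adjusted p = 0.033), a call lost without iAs replicates 2 or 3 or Mn replicates 1 or 3 (adjusted p between 0.0523 and 0.121) and, without iAs replicate 2 and both libraries that ran with it, at 0.0669.

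Of 7 tested shifted forms of miR-29, 4 were called higher with iAs. The miR-29a-3p form at +5 (0.47, adjusted p = 0.051) and the identical forms of miR-29b-2-5p and miR-29b-3-5p at -1 (0.17, adjusted p = 0.38) were not called. The miR-29a-3p forms at offsets -1 and +6 differed by 0.53 and 0.59, and the form at +1 by 0.58, whose call (adjusted p = 0.047) was lost without iAs replicates 2 or 3, any Cd replicate, or Mn replicates 1 or 3 (adjusted p between 0.0543 and 0.167). The form of miR-29b-1-5p at -5 had no overlap between iAs and the other groups given here, at 234, 185 and 232 RPMMM with iAs, 131.5, 156.6 and 135.6 with Mn and 93.7, 110 and 135 in untreated cells. It differed by 0.61 between the metals (SE 0.13, adjusted p = 0.0064), by 0.94 between iAs and untreated cells (adjusted p = 6.3e-04) and by 0.33 between Mn and untreated cells (adjusted p = 0.13). Read as a start 5 bases upstream of the RefSeq strand, a reading of the sign that the table does not state, this form has another seed than the annotated strand, and both are printed with the seed in capitals and 22 bases long.
miR-29b-1-5p, form at -5: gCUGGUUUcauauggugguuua
miR-29b-1-5p, as annotated: uUUCAUAUggugguuuagauuu

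miR-132 and miR-212 come from neighbouring hairpins and are induced by CREB in neurons and endocrine cells. Of their 7 rows 5 were higher with iAs and 0 lower (median 0.41), and 3 were higher without iAs replicate 1, Mn replicate 1 or Mn replicate 3. Among all tested rows 7.27% were higher and 9.75% lower. miR-212-3p had 188, 180 and 176 RPMMM with iAs and 134.8, 145.6 and 128.8 with Mn (0.41, SE 0.09, adjusted p = 0.0062), with untreated cells at 136.5, 138.2 and 167.5. miR-132-3p, the more abundant strand, had 2122, 1766 and 1977 RPMMM with iAs and 1528, 1515 and 1493 with Mn (0.37, SE 0.10, adjusted p = 0.021). Its call was lost without iAs replicates 1 or 3 or any Mn replicate (adjusted p between 0.0584 and 0.0845) and with quantile normalization (0.156). The smallest adjusted p of this list was that of the miR-132-5p form at -1 (0.47, adjusted p = 0.0058).

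miR-22-3p, miR-148a-5p, miR-140-3p and miR-204-5p were higher with iAs than with Mn and lower with Mn than in untreated cells. The abundant miR-22-3p had 13429, 14062 and 14219 RPMMM with iAs and 9704, 10645 and 9872 with Mn, without overlap (0.47, SE 0.06, adjusted p = 2.7e-04). Its untreated libraries, at 13311, 11299 and 11697, lay above every Mn library, and the Mn difference from untreated was -0.26 (adjusted p = 0.030) against 0.20 for iAs (adjusted p = 0.059). The passenger strand miR-148a-5p had 276, 257 and 287 RPMMM with iAs and 173.8, 189.2 and 183.4 with Mn (0.58, SE 0.09, adjusted p = 4.5e-04). Untreated cells, at 283, 244 and 243, overlapped those with iAs, and Mn differed from them by -0.49 (adjusted p = 0.0091). miR-140-3p, best known from cartilage, differed by 0.45 (SE 0.09, adjusted p = 0.0031), at 477 ± 11.8 RPMMM with iAs against 349 ± 26.2 with Mn (SD, n = 3 each). Mn differed from untreated cells by -0.33 in miR-140-3p (adjusted p = 0.039). miR-204-5p, which represses Mafa in beta cells, had 440.9, 442.8 and 434.3 RPMMM with iAs against 343, 388 and 364 with Mn (0.27, SE 0.07, adjusted p = 0.021). Its Mn value was below untreated by -0.29 (adjusted p = 0.030) and its iAs value differed by -0.02 (adjusted p = 0.83). The miR-204-5p call was lost without iAs replicates 1 or 3 or Mn replicates 1 or 3 (adjusted p between 0.0565 and 0.0892).

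In several further rises single libraries decided the call. miR-101a-3p differed by 0.48 (adjusted p = 0.016), the 1 called row of 5 in its family, and was not called without iAs replicate 2 or Mn replicates 1 or 3 (adjusted p between 0.0503 and 0.0594). miR-16-3p, the passenger of miR-16, differed by 0.47 (adjusted p = 0.024), the 1 called of 14 rows of the miR-15, miR-16, miR-195 and miR-497 list. That call was lost without iAs replicates 2 or 3 or Mn replicates 1 or 3 (adjusted p between 0.0740 and 0.107). miR-137-3p differed by 0.64 (adjusted p = 0.044), at 15.5, 27.3 and 21.3 RPMMM with iAs and 13.88, 14.01 and 11.25 with Mn. The miR-137-3p call was lost without untreated replicate 2, iAs replicates 2 or 3, Cd replicates 1 or 3 or any Mn replicate (adjusted p between 0.0528 and 0.163). Quantile normalization ended it as well (0.0613). miR-671 differed by 0.43 (adjusted p = 0.037) and lost its call without iAs replicates 1 or 3 or any Mn replicate (adjusted p between 0.0614 and 0.117). A form of miR-17-2-3p at -1 differed by 0.54 (adjusted p = 0.0072), and was called without each single library.

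**Figure D2:**
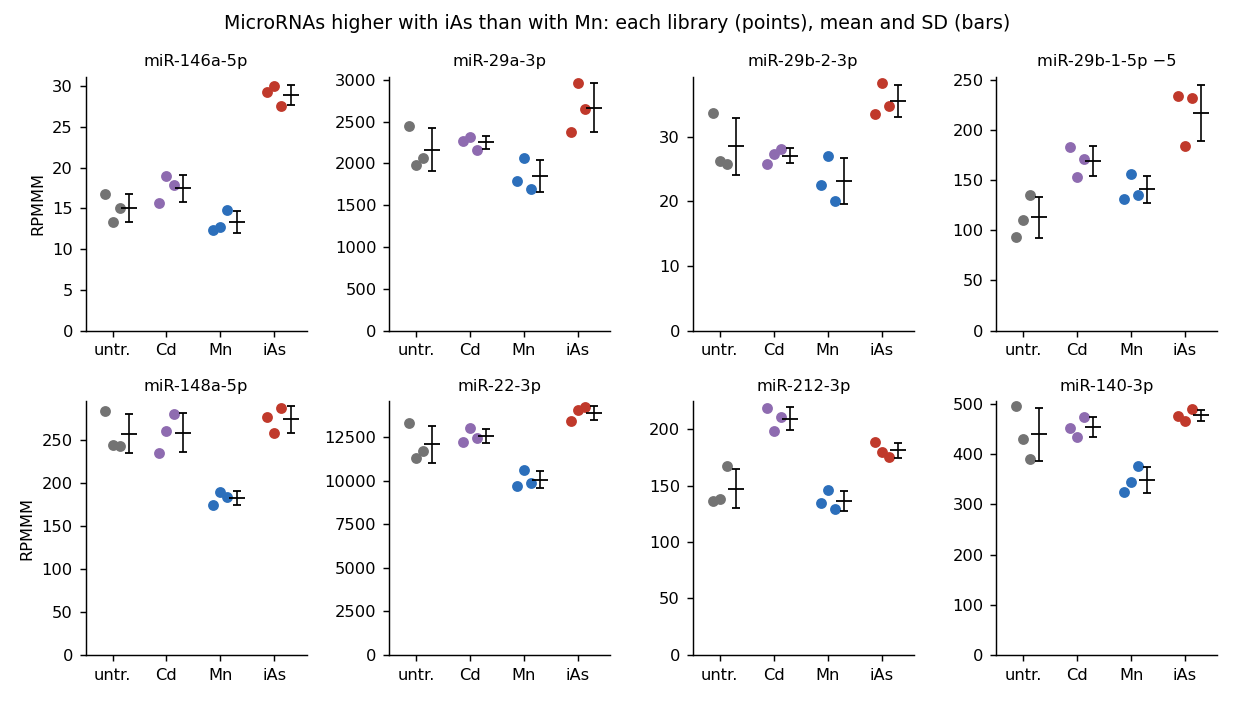
RPMMM of 8 rows called higher with iAs than with Mn, in each of 3 libraries per group (points), with the mean and SD (bars) of untreated, Cd, Mn and iAs; every y axis starts at 0. The iAs points of miR-146a-5p (27.52 to 29.98) stand above all other groups, whereas for miR-148a-5p and miR-140-3p it is the Mn points that stand below the others.

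The 3 most negative differences, and 5 lower rows in all, belonged to the Dlk1-Dio3 cluster, an imprinted locus with many hairpins that is active in brain and endocrine tissue. Of 33 rows of this cluster only 5 reached the limit of 10 RPMMM and were tested. All 5 tested rows of it were lower with iAs (median -1.05), against 9.75% of all rows tested. They were also lower without each single library and after both rescalings. The form of miR-409a-3p at -1 had 10.4, 7.84 and 6.46 RPMMM with iAs and 24.6, 19.5 and 23.3 with Mn (-1.36, SE 0.16, adjusted p = 1.3e-04). miR-410-3p had 13.1, 15.9 and 9.19 against 30.48, 25.42 and 27.98 (-1.10, SE 0.16, adjusted p = 4.2e-04). miR-541-5p had 27.75, 28.59 and 28.23 against 46.7, 49.1 and 56.8 (-0.82, SE 0.11, adjusted p = 2.5e-04). In these 3 rows the untreated libraries overlapped the Mn libraries and lay above every iAs library. miR-369-3p had 14.29, 12.14 and 14.04 RPMMM with iAs and 25.6, 26.7 and 18.8 with Mn (-0.76, SE 0.16, adjusted p = 0.0056).

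miR-382-5p of the same cluster differed in its order of groups. It had 17, 14.42 and 14.46 RPMMM with iAs, 22.2, 22.6 and 23.6 in untreated cells and 34.88, 28.03 and 35.25 with Mn, so no group overlapped another. The iAs and Mn groups differed by -1.05 (SE 0.11, adjusted p = 7.7e-05), with -0.55 for iAs against untreated (adjusted p = 0.0077) and 0.50 for Mn against untreated (adjusted p = 0.023). RefSeq places miR-369, miR-382, miR-410 and miR-541 in 1 run of 34 neighbouring hairpins. The canonical miR-409a-3p was too low for the test, at 0, 1.39 and 0 RPMMM with iAs and 3.89, 2.47 and 3.43 with Mn. miR-127-3p of this cluster was at most 2.75 RPMMM in any library. All these levels are low, the highest mean among the 5 rows with Mn being 50.9 RPMMM.

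miR-344b-3p, which shares the seed of miR-410-3p but not its cluster, was lower with iAs too. It had 245.7, 217.5 and 228.9 RPMMM with iAs and 305, 348 and 324 with Mn (-0.50, SE 0.07, adjusted p = 4.9e-04). Here Mn stood above untreated cells, at 267, 243 and 250 (0.36, adjusted p = 0.015), and iAs differed from them by -0.14 (adjusted p = 0.25). A like order held for miR-346, at 10.31, 12.9 and 10.01 RPMMM with iAs and 21.5, 24.6 and 21.3 with Mn (-0.96, SE 0.13, adjusted p = 2.7e-04). Its untreated libraries, at 13.3, 12.7 and 16.2, lay below every Mn library, by 0.64 in log2 for Mn over untreated (adjusted p = 0.015). The form of miR-346 at -1 gave -0.95 between the metals. miR-125b-1-3p, a passenger strand, also stood higher with Mn, at 33.8, 40.5 and 39.8 RPMMM against 27.7, 21.6 and 23.7 with iAs (-0.63, SE 0.15, adjusted p = 0.012), and 18.3, 25.6 and 20.6 in untreated cells. Its call was lost without Mn replicate 3 (adjusted p = 0.0506).

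miR-708-5p, which is known to be induced by the stress factor CHOP, had 49.9, 48.1 and 52.7 RPMMM with iAs and 97.1, 82.1 and 78.3 with Mn (-0.76, SE 0.09, adjusted p = 1.3e-04). Untreated cells, at 86.9, 79.8 and 84.7, overlapped those with Mn (0.03, adjusted p = 0.89). miR-28-5p, of the same seed, was at 262 ± 5.94 RPMMM with iAs and 244 ± 4.16 with Mn (SD, n = 3 each), a difference of 0.10 that was not called (95% interval -0.05 to 0.26, adjusted p = 0.39). The brain-enriched miR-218a-5p had 272, 347 and 302 RPMMM with iAs and 476.2, 497.4 and 430.9 with Mn (row miR-218a-1-5p; -0.61, SE 0.09, adjusted p = 4.0e-04). Its untreated libraries, at 476.6, 446.3 and 432.6, overlapped those with Mn. miR-7b had 7.06, 8.86 and 8.14 RPMMM with iAs and 16, 14.15 and 14.81 with Mn (-0.83, SE 0.15, adjusted p = 0.0023), while the abundant miR-7a-5p of the same seed differed by -0.00. The mature miR-7a-5p and miR-7b differ by 1 base and miR-7a-5p is far more abundant, so how the counting split their reads is uncertain. miR-702-5p differed by -0.90 (adjusted p = 0.013, and 0.0584 without Mn replicate 1), at 8.58, 4.81 and 10.45 RPMMM with iAs and 16.9, 14.6 and 13.7 with Mn.

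miR-378a-3p, encoded in an intron of the metabolic coactivator gene Ppargc1b, had 1973, 1994 and 1910 RPMMM with iAs and 2449, 2405 and 2500 with Mn (-0.32, SE 0.05, adjusted p = 4.6e-04). The untreated libraries were higher than both, at 2721, 2670 and 2656. In miR-421-3p the order was iAs (177, 169 and 191), untreated (215.5, 217.1 and 238.2) and Mn (265, 253 and 258 RPMMM), without overlap between any groups (iAs minus Mn -0.53, SE 0.07, adjusted p = 2.6e-04). Its neighbour miR-374 was lower with iAs in both arms, by -0.42 for 5p (adjusted p = 0.013) and -0.73 for 3p (adjusted p = 0.0023). The 5p call was lost without iAs replicate 1 or Mn replicate 1 (adjusted p = 0.0579 and 0.0584).

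**Figure D3:**
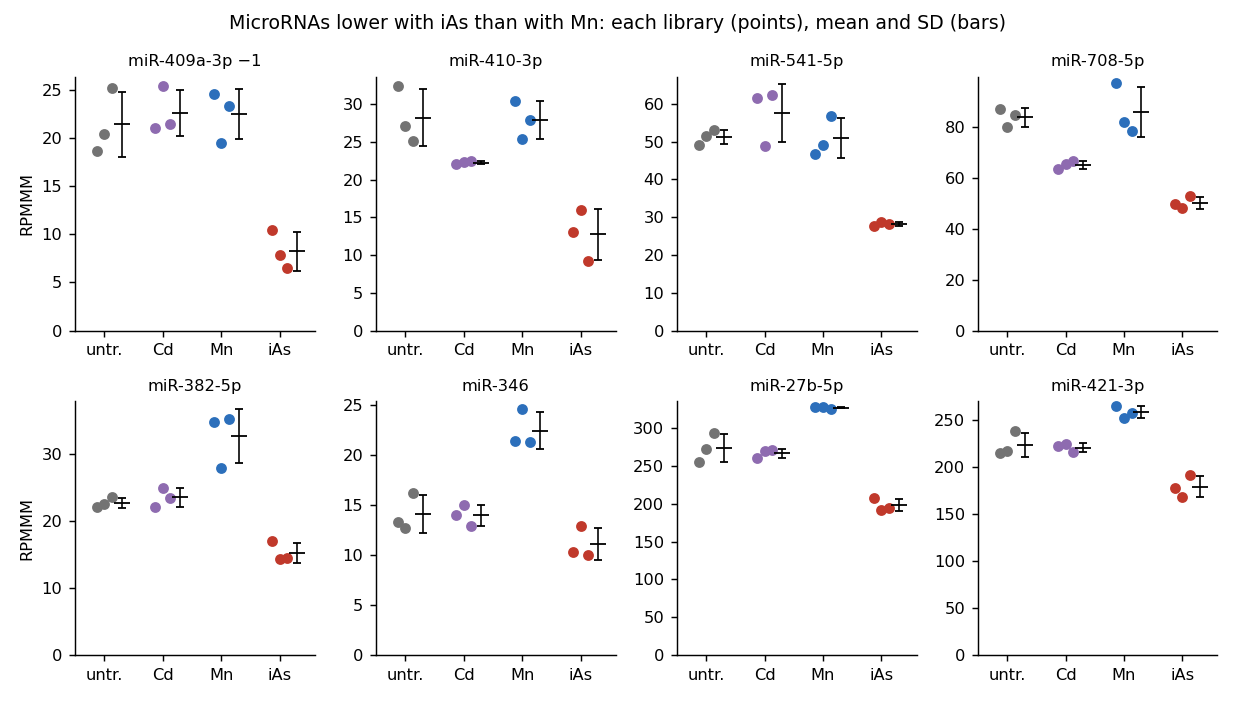
RPMMM of 8 rows called lower with iAs than with Mn, in each of 3 libraries per group (points), with the mean and SD (bars) of untreated, Cd, Mn and iAs; every y axis starts at 0. For the miR-409a-3p form, miR-410-3p, miR-541-5p and miR-708-5p the iAs points lie below all other groups and the Mn points overlap untreated, while for miR-382-5p, miR-346, miR-27b-5p and miR-421-3p the Mn points lie above untreated; the iAs points of miR-346 overlap untreated.

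The miR-23b, miR-27b and miR-24-1 hairpins are neighbours, and 4 of their 6 canonical rows were lower with iAs and 0 higher, with 2 lower without iAs replicate 3 or Mn replicate 1. miR-27b-5p, the passenger strand, had 207.3, 192.03 and 195.24 RPMMM with iAs and 328, 328 and 326 with Mn (-0.72, SE 0.07, adjusted p = 3.1e-05, the smallest of all rows). Untreated cells, at 256, 273 and 293, lay between them without overlap. miR-23b-5p had 9.42, 6.83 and 7.58 RPMMM with iAs and 13.7, 16.6 and 13.3 with Mn (-0.80, SE 0.18, adjusted p = 0.0072). Its mean over the 12 libraries, 10.9 RPMMM, reached the limit of 10 only through the Mn libraries. Its place among the 4 lower rows therefore rests on the group where it was high. The abundant strands of these hairpins differed less: miR-27b-3p by -0.18, miR-24-3p by -0.20 (adjusted p = 0.018, but 0.0752 without iAs replicate 3 and 0.0853 without Mn replicate 1) and miR-23b-3p by -0.20, which was not called (adjusted p = 0.058). The miR-27b-3p call (adjusted p = 0.030) was lost without iAs replicates 1 or 3 or any Mn replicate (adjusted p between 0.0546 and 0.105) and with quantile normalization (0.0558). In the wider list with the miR-23a, miR-27a and miR-24-2 hairpins, 7 of 26 rows were lower and 0 higher (median -0.20). Over all rows 9.75% were lower and 7.27% higher. The lower rows of this list numbered 3 without iAs replicate 3 or Mn replicate 1. All 7 are rows of miR-23b-5p, miR-27b and miR-24-3p. The strands found only in the added hairpins were not called. These are miR-23a-3p (0.04), miR-27a-3p (0.10), miR-27a-5p (-0.35) and miR-24-2-5p (0.24). Of the mature strands, miR-24-3p comes from both clusters and cannot be assigned to either.

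The miR-106b, miR-93 and miR-25 hairpins lie in an intron of the replication gene Mcm7. Of their 6 canonical rows, 3 were lower with iAs and 0 higher. miR-106b-3p had 1993, 1973 and 1949 RPMMM with iAs and 2411, 2507 and 2431 with Mn (-0.31, SE 0.06, adjusted p = 0.0034). miR-25-3p had 19169, 18882 and 18957 against 21287, 22609 and 21665 (-0.20, SE 0.04, adjusted p = 0.0056, and 0.0906 with quantile normalization). miR-93-5p differed by -0.27 (adjusted p = 0.024), with iAs replicate 2 at 14706 RPMMM and the other iAs libraries at 11846 and 11756. Its call was lost without iAs replicates 1 or 3 or any Mn replicate (adjusted p between 0.0614 and 0.117) and with quantile normalization (0.171). miR-92b-3p, which shares the seed of miR-25-3p and comes from another hairpin, differed by -0.44 (adjusted p = 0.029), but miR-92a-3p and miR-363-3p of that seed were not called (-0.03, 0.21 and 0.09 over their 3 rows). The miR-92b-3p call was lost without iAs replicates 2 or 3 or Mn replicates 2 or 3 (adjusted p between 0.0674 and 0.114). Over the whole list of miR-17-92 and related clusters, 5 of 26 rows were lower and 1 higher (median -0.14), against 9.75% and 7.27% of all rows. All 5 lower rows are of miR-106b, miR-93 and miR-25, and the higher one is the miR-17-2-3p form at -1. Canonical rows of the other clusters in the list had 0 calls. The lower rows numbered 3 without iAs replicates 1 or 3 or any Mn replicate, and 8 without iAs replicate 2.

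**Figure D4:**
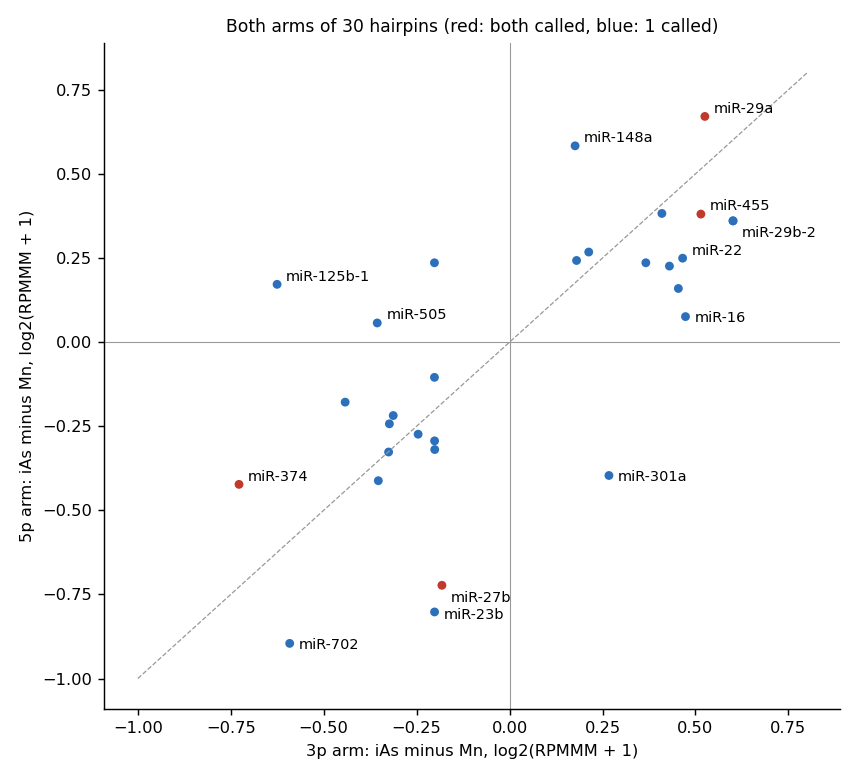
Each point is 1 of 30 hairpins with both arms tested and at least 1 called, with the iAs minus Mn difference in log2(RPMMM + 1) of the 3p arm on the x axis and of the 5p arm on the y axis; the dashed line marks equal differences. Red marks the 4 hairpins with both arms called and blue the 26 with 1 called. miR-27b and miR-23b lie far below the dashed line, at -0.72 and -0.80 for 5p against -0.18 and -0.20 for 3p. miR-23b-5p reached the limit for testing only through the Mn libraries. The place of miR-23b in this figure therefore rests on the group where its 5p arm was high.

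Both arms could be followed in 30 hairpins with at least 1 called arm, some of which share a mature strand. The arms had the same sign in 26, a count without a background, since hairpins with no called arm were left out. Both arms were called in 4, miR-27b, miR-29a, miR-374 and miR-455. These 4 became 2 without iAs replicates 1 or 2 or Mn replicate 2, and 1 without iAs replicate 3 or Mn replicates 1 or 3. Within a library, the log2 value of miR-27b-5p minus that of miR-27b-3p was -6.56 to -6.40 with iAs and -6.00 to -5.92 with Mn, so the 5p arm was a smaller share with iAs without overlap. The same difference in miR-148a ran the other way, at -6.25 to -6.02 with iAs and -6.56 to -6.47 with Mn, since miR-148a-3p differed by 0.18 (adjusted p = 0.12) and its 5p arm by 0.58. In miR-301a the arms had opposite signs, -0.40 for 5p (adjusted p = 0.018) and 0.27 for 3p (adjusted p = 0.11), with arm differences of -3.93 to -3.63 against -3.18 to -2.98. The miR-301a-5p call was lost without iAs replicate 1 or Mn replicates 1 or 2 (adjusted p between 0.0594 and 0.0760). Differences between arms were not tested.

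Of the 89 called rows 25 were shifted forms, from 244 tested, and 64 were canonical, from 279 tested. For 22 of these 25 forms the canonical row was tested, and all 22 had its sign, and for 19 it was called as well. The exceptions were forms of miR-132-5p and miR-212-5p, whose canonical rows differed by 0.24 (adjusted p = 0.11) and 0.38 (adjusted p = 0.070), and of miR-17-2-3p, whose canonical row differed by 0.05 (adjusted p = 0.91). Forms of a microRNA come from the same hairpin and are not replicates of each other.

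Grouped by seed, 33 seeds of the matched canonical rows were held by at least 2 rows of distinct values. A called row was found in 17 of these 33. Beside this, 62 of the 259 matched canonical rows were called, and a seed with more rows has more room for a call. Only 8 of the 33 seeds had at least 2 called rows and so could show both directions. In 0 of these 8 were calls in both directions, and in some of them the called rows share 1 mature strand, which fixes their direction. Every row was called in 6 of the 33, among them the pairs miR-146a-5p with miR-146b-5p and miR-132-3p with miR-212-3p, and others whose rows share a mature strand, such as miR-218a-5p, miR-128-3p and miR-9a-5p. Of these 6 seeds, 3 had every row called without iAs replicate 3 or Mn replicates 1 or 2.

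Beta cell enriched microRNAs had 11 higher and 7 lower of 83 rows (median 0.07), against 7.27% higher and 9.75% lower over all rows. The higher ones are 9 miR-29 rows with miR-148a-5p and miR-204-5p, and 3 were lower without iAs replicate 3 or Mn replicate 1. Against 17% of all rows, the miR-200 family had 0 calls of 10 rows, the miR-183 cluster 0 of 10, and p53-responsive microRNAs 0 of 12, with medians of 0.10, 0.04 and 0.01. The leading row was the miR-200c-3p form at +1 in the first (0.21, adjusted p = 0.12, and 0.0233 with quantile normalization), the miR-183-3p form at -1 in the second (-0.27, adjusted p = 0.15) and miR-34b-3p in the third (-0.29, adjusted p = 0.19). The miR-30 family had 0 calls of 21, led by miR-30c-1-3p (-0.29, adjusted p = 0.052, and called without Cd replicate 2, at 0.0363). The let-7 family had 1 lower of 75 rows, miR-98-5p (-0.18, adjusted p = 0.021), whose call was lost after both rescalings (adjusted p = 0.0842 and 0.576) and without iAs replicates 1 or 2 or Mn replicates 1 or 3. Up to 3 let-7 rows were lower without untreated replicate 1, and 2 without iAs replicate 2. The miR-7 list had 1 lower of 22, miR-7b, and the 1 tested row of miR-221 and miR-222 was not called (-0.25).

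Hypoxia-responsive microRNAs had 1 lower of 15 rows, miR-181d-5p (-0.14, adjusted p = 0.045), whose call was lost without any 1 library other than untreated replicate 1 (adjusted p between 0.0543 and 0.134). miR-210-3p, the best known of them, had 298, 441 and 314 RPMMM with iAs and 411.6, 384.5 and 403 with Mn. These overlap, and the difference of -0.21 missed the threshold (95% interval -0.49 to 0.07, adjusted p = 0.34), which it passed with iAs replicate 2 left out (adjusted p = 0.0214) and without it and both libraries that ran with it (0.00192). Both metals stood below untreated cells for miR-210-3p, by -0.74 with iAs and -0.53 with Mn (adjusted p = 0.0024 and 0.030). Oxidant-response microRNAs had 2 lower of 16 rows, both of miR-93-5p. For this list and the hypoxia list, the shares over all rows were 9.75% lower and 7.27% higher. Oxidant-response rows numbered 4 lower without iAs replicate 2 and 1 lower without iAs replicates 1 or 3 or any Mn replicate. In that list 1 row was higher without untreated replicate 1 or Mn replicate 2. Among fixed single microRNAs, miR-21-5p (0.10), miR-34a-5p (0.09), miR-184 (0.05), miR-200c-3p (0.10), miR-141-3p (0.05), miR-182 (0.07), miR-183-5p (-0.05), miR-96-5p (0.17), miR-195-3p (-0.22), miR-497-5p (0.10) and miR-320-3p (0.18) were not called between the metals. miR-320-3p was called without iAs replicate 2 and both libraries that ran with it (adjusted p = 0.0173). Not tested for low values were miR-708-3p, miR-200a-3p and miR-429, at no more than 10.6, 4.24 and 2.10 RPMMM in any library.

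**Figure D5:**
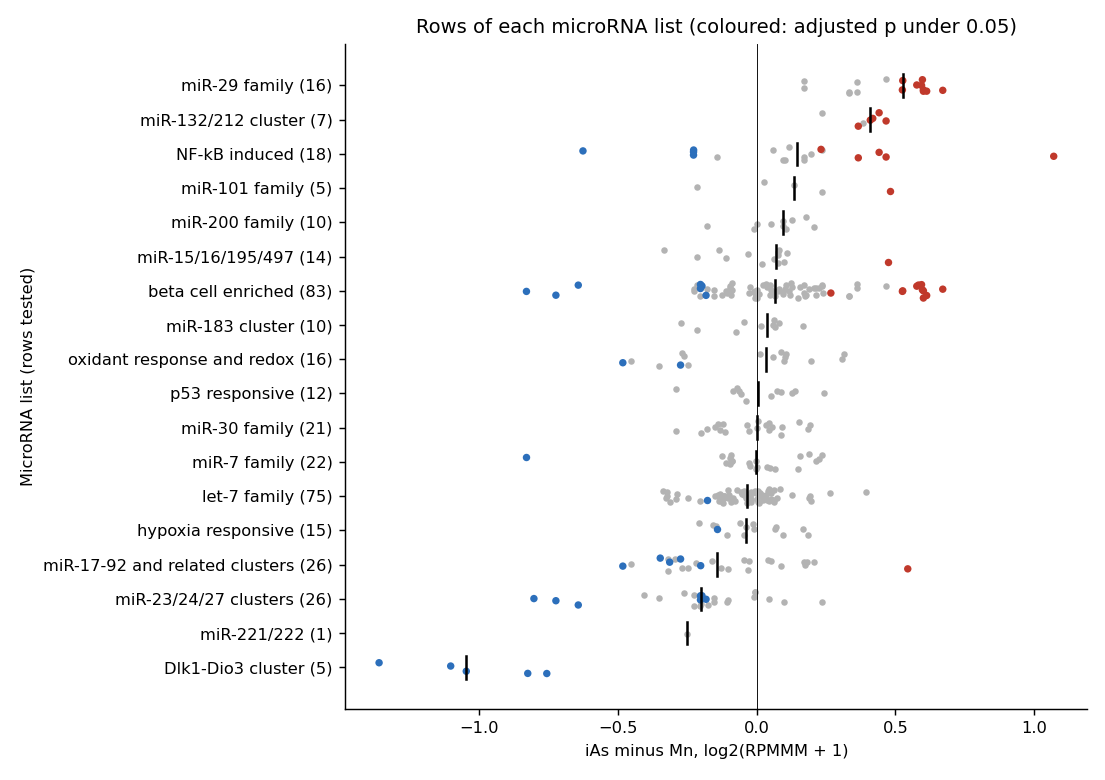
The iAs minus Mn difference in log2(RPMMM + 1) (x axis) of every tested row in each of 18 microRNA lists (y axis, number of rows in brackets), with the median as a black line. Coloured points were called (red higher, blue lower with iAs); all 5 Dlk1-Dio3 rows lie at -0.76 or lower, and the rows of miR-29, miR-132 and miR-212 lie above 0.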

How the data were processed

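Small RNA libraries of 12 samples (4 groups of 3) were analysed. The authors deposited 1 table of normalized microRNA values in RPMMM, an RPM unit scaled to the reads mapped to microRNAs. The submitters' processing notes name STAR, Salmon, DESeq2 and the rat build rn6 without roles, and versions are not given in the sources used here. Low values were whole multiples of 1 read for 62.0% to 73.6% of rows (within 0.0075 RPMMM), so no count test was run. Values were taken as log2(RPMMM + 1), rows whose mean reached 10 RPMMM were kept, and limma 3.58.1 with a mean-variance trend (R 4.3.3) was fitted on 12 libraries in 4 groups, which share 1 estimate of the spread. P-values were Benjamini-Hochberg adjusted over 523 rows, with a threshold of 0.05. The script was tested on simulated data. Pseudocounts fold changes of low rows towards 0.

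Named rows are the 10 largest called differences in each direction without overlap, the row of smallest adjusted p in each list, and a fixed set; other names were chosen after values were seen. The members and lists were chosen with earlier results of these data known. Sequences and hairpin neighbours (within 10 kb on 1 strand) come from RefSeq, assembly GRCr8, and since the files use rn6 no coordinates are given. Alternatives were other pseudocounts, filters, scalings, spread models, replicate blocks and left-out libraries. The mRNA libraries were not used here.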

Additional observations from a re-analysis of the deposited data

How the results depend on the processing

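The 89 called rows (38 higher, 51 lower with iAs) kept their direction without each single library, and 44 of them were called in each of these 12 fits. Leaving out 1 library gave 54 to 102 called rows, 21 to 46 higher and 31 to 56 lower. With a mean of at least 100 RPMMM, and so fewer rows tested, 43 rows were called, 18 higher and 25 lower. With array weights estimated gene by gene, 55 rows were higher and 75 lower; limma's REML weights, run first, stopped before convergence and gave 57 higher and 79 lower. miR-210-3p, miR-29c-3p, miR-30c-1-3p and the miR-183-3p form at -1 passed the threshold with the gene-by-gene weights. Requiring over 1.5-fold left 27, of which 8 were higher and 19 lower. Other settings stayed within 1.5 times the count: median-of-ratios rescaling called 46 higher and 48 lower, and quantile normalization 41 and 39. In alternatives chosen after seeing the data, 112 were called without iAs replicate 2, untreated replicate 1 and Cd replicate 2, and 73 without iAs replicate 1, untreated replicate 3 and Cd replicate 1. Same-numbered iAs and Mn libraries correlated in their deviations at 0.14, 0.28 and -0.13, so the numbers were not taken as pairs, and iAs replicates 1 and 3 correlated best with another number. With the replicate block 75 rows were called over 12 libraries (33 higher, 42 lower) and 114 over the iAs and Mn libraries alone (55 and 59). The smallest values above 0 were worth about 10 reads, so low rows such as miR-7b rest on few reads.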

Other observations

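Cadmium was outside the comparison of iAs with Mn, and its values for the same microRNAs are given here without a test. miR-212-3p had 219, 198 and 211 RPMMM with Cd, above every iAs library. miR-708-5p had 63.6, 65.3 and 66.5, between the iAs and the Mn libraries without overlap. miR-541-5p, at 61.5, 48.7 and 62.4, overlapped Mn, whereas miR-410-3p, at 22.04, 22.3 and 22.5, lay between iAs and Mn. For miR-146a-5p the Cd libraries had 15.6, 18.9 and 17.9 RPMMM, below every iAs library and above every Mn library. For miR-346 they had 14.01, 14.97 and 12.9, below every Mn library.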
